A study of Mus musculus with 6 samples.

Results

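Laminins and the glycoproteins that bind them were examined in adipocytes of mice with and without Cre-mediated deletion of Spi1, the gene of the transcription factor PU.1. The set comprised 10 of the 35122 genes in the count table, taken by gene symbol: the laminin alpha chains Lama2, Lama4 and Lama5, the beta chains Lamb1 and Lamb2, the gamma chain Lamc1, the nidogens Nid1 and Nid2, and the heparan sulfate proteoglycans Hspg2 (perlecan) and Agrn (agrin). All 10 passed the filter on low counts, each with 248 to 90295 counts per library. RNA came from the floating layer of collagenase-digested epididymal fat pads of male C57BL/6 mice, labelled as 10 to 11 months old (the study's own text gives an older age). Libraries were made from 3 control mice (PU.1 fl/fl) and 3 aPU.1KO mice, in which the same floxed alleles are combined with AdipoqCre, 1 library per mouse. The controls were littermates, but which mice shared a litter is not given in the sources used here. Both groups carry Spi1 with an exon between loxP sites, and the counts are of the whole gene, other exons included. Cre is driven by the adiponectin promoter, which is active in adipocytes, so Spi1 in other cells of the floating layer is not its target.

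Basement membranes are thin sheets of extracellular matrix, and each fat cell is wrapped in its own. Their laminins are trimers of an alpha, a beta and a gamma chain that polymerize at the cell surface, nidogens link the laminin network to that of type IV collagen, and perlecan and agrin carry heparan sulfate chains that bind growth factors and cell receptors. Endothelial cells, pericytes and nerve sheaths of adipose tissue make basement membranes as well. In bulk RNA, a smaller number of cells of a type and less RNA per cell cannot be told apart.

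Counts summed to between 20550252 and 69283842 per library, and control library 1 was the deepest. Spi1 measured 24.3, 6.35 and 26.7 CPM (counts scaled to a common library total after TMM normalization) in the control mice and 3.20, 1.22 and 4.17 CPM after deletion. All aPU.1KO mice were below every control mouse, and control mouse 2 was far below the other two controls. Genes that mark adipocytes were abundant in all libraries. Over 7 genes they summed to 16033 to 17517 CPM in controls and 18640 to 21517 CPM in aPU.1KO mice. Of the 7, 6 were higher without overlap (16.7% of all genes), among them Cfd (control mean 993 CPM, aPU.1KO mean 3244 CPM). Lep was lower without overlap (control mean 4751 CPM, aPU.1KO mean 2790 CPM). These sums do not measure how pure the fraction was. Summed markers of macrophages (9 genes, 363 to 1234 CPM against 172 to 257) were lower in every aPU.1KO mouse. So were those of progenitors and fibroblasts (7 genes, 311 to 518 CPM against 160 to 267). Control mouse 2 had the lowest control sum in each list. Of the 9 macrophage markers, 7 were lower without overlap (15.5% of all genes). Cd14 overlapped, and Cd163 overlapped with a positive log2 fold change, aPU.1KO over control (0.29). In the progenitor and fibroblast list 5 were lower without overlap, and Dpp4 and Ly6a overlapped. Endothelial markers (9 genes, 621 to 888 CPM against 372 to 806) and mural cell markers (9 genes, 548 to 798 CPM against 429 to 563) overlapped between the groups in their sums, and none of the genes in these 4 lists was at 3 counts or fewer in every library.

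The promoters of 4 members are shown because PU.1 binds purine-rich DNA, and because these genes cover the range of values described later, from Lama2 to Lamb2. Each window is RefSeq sequence of GRCm38.p6 on the gene's own strand, 5′ to 3′, from 250 bases before to 50 bases after the start annotated there. Capitals mark GAGGAA, the purine-rich core searched for, or TTCCTC, the same core on the other strand. The windows lie at chr10:27616893-27617192 (Lama2, minus strand), chr2:180225810-180226109 (Lama5, minus strand), chr4:137468553-137468852 (Hspg2, plus strand) and chr9:108479612-108479911 (Lamb2, plus strand).
Lama2 promoter: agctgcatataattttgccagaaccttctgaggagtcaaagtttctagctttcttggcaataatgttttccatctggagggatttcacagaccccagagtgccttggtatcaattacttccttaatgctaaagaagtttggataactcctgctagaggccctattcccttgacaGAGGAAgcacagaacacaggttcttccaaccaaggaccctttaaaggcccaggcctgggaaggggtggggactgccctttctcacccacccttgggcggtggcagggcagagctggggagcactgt
Lama5 promoter: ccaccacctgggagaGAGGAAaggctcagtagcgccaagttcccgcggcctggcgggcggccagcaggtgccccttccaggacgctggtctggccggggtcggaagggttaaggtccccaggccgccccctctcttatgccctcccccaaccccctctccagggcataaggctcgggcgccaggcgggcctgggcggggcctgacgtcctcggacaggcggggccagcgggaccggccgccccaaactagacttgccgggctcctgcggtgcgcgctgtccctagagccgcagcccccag
Hspg2 promoter: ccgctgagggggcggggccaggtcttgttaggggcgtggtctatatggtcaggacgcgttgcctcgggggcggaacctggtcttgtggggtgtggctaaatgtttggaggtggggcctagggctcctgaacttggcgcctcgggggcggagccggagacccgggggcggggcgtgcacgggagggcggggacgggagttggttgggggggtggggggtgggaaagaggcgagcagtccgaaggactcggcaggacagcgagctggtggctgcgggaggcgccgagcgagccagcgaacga
Lamb2 promoter: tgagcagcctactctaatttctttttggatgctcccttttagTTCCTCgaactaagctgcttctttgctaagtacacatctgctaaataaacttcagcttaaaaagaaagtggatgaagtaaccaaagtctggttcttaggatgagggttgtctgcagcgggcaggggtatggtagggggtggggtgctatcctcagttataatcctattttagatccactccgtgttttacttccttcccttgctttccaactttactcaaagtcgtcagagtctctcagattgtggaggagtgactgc

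The core began 76 bases before the RefSeq start in Lama2 and 235 bases before it in Lama5, both on the gene's strand, and 208 bases before it on the other strand in Lamb2. The Hspg2 window held no match. These RefSeq starts need not be the outermost start of the GENCODE gene: that of Lama2 lies 2816 bases inside the gene, that of Lamb2 126 bases and that of Hspg2 34 bases inside, and that of Lama5 at the gene's start. RefSeq windows were found for 7 of the 10 members (Agrn has 2 of them), and 5 of these 8 windows held the core, the others being Lamb1 and Nid1, where it lay on the other strand. Of all 32851 promoter windows of this length, 9289 (28.3%) held it. Lama4, Lamc1 and Nid2 had no window. A match of 6 letters is a description of the sequence and not a binding site.

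Every member had a log2 fold change (aPU.1KO over control) from edgeR's quasi-likelihood test between -1.26 and 0.05, and 9 of the 10 values were negative, though those of Lamb2 and Agrn were near 0 and turned positive without control mouse 2 (0.08 and 0.05). The median of the 10 was -0.19, beside a median of 0.01 over all 13925 genes tested. The lowest values belonged to the alpha chains Lama2 and Lama5, followed by Hspg2 and Lamc1. In these 4 genes every aPU.1KO mouse was below every control mouse, which held for 15.5% of all genes tested, and no member had every aPU.1KO mouse above the controls (16.7% of all genes). After Benjamini-Hochberg adjustment over all genes, edgeR called 0 of the 10 members at 0.05, against 0.237% of all genes. At an unadjusted p under 0.05 edgeR called the same 4 members lower (13.7% of all genes) and 0 higher (11.9%), and without control mouse 2 it called 3 of the members, Hspg2 no longer among them. DESeq2, which the study used, called these 4 lower at an adjusted p under 0.05 (7.48% of its genes) and 0 higher (3.51%), and limma-voom called 0.

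**Figure D1:**
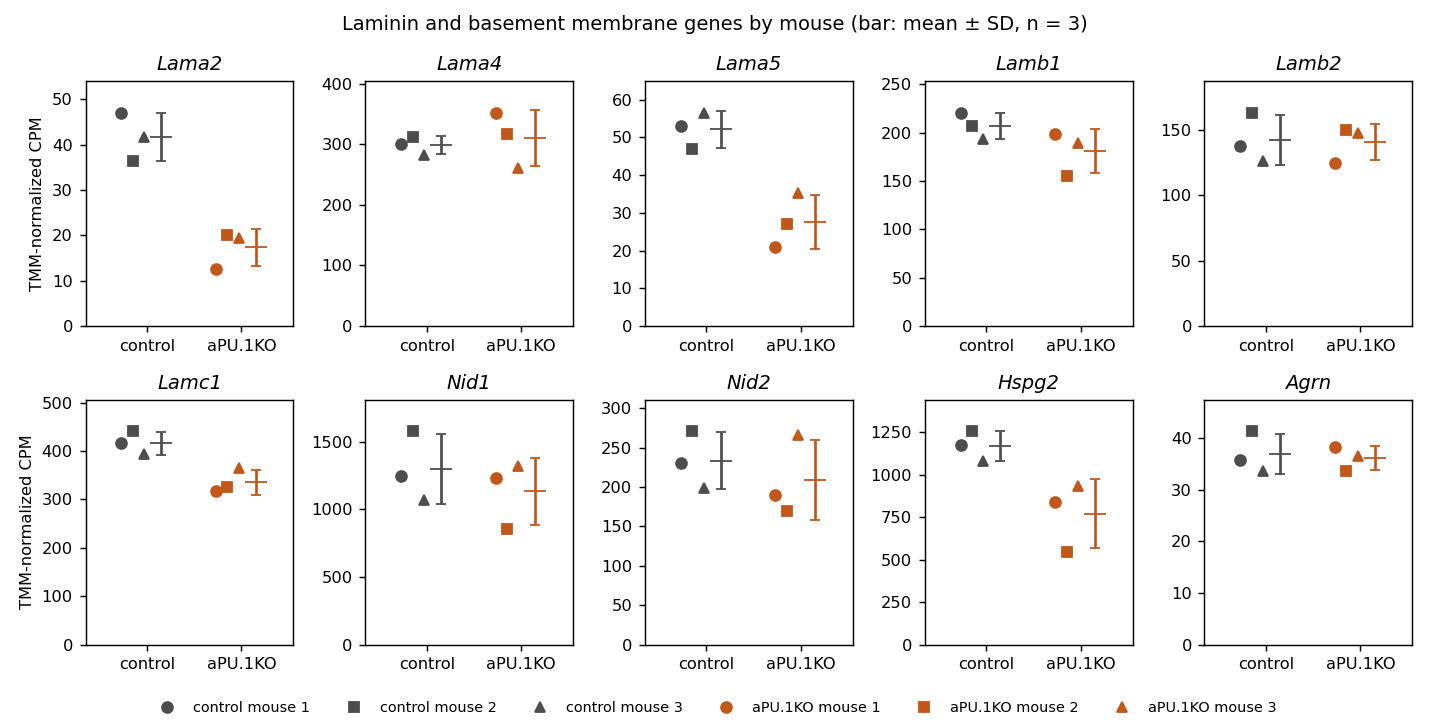
TMM-normalized CPM (y axis, from 0, a separate scale for each gene) of the 10 members in each of the 3 control and 3 aPU.1KO mice, with the mean and SD beside the points. The aPU.1KO points of Lama2, Lama5, Lamc1 and Hspg2 lie wholly below the control points, and those of the other 6 genes overlap with them.

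Lama2 (ENSMUSG00000019899; GRCm38 chromosome 10, 26980036 to 27619758, minus strand, 66 merged exons) encodes the alpha chain of merosin-type laminins, best known from muscle fibres and the sheath of peripheral nerve. It measured 47.0, 36.5 and 41.6 CPM in the control mice and 12.6, 20.02 and 19.5 CPM in the aPU.1KO mice. The highest aPU.1KO mouse was well below the lowest control, and aPU.1KO mouse 1 was the lowest of all. The means were 41.7 ± 5.25 and 17.4 ± 4.13 CPM (SD, n = 3 each), a fold of 0.416 with a 95% interval of 0.303 to 0.572. The log2 fold change was -1.26 (SE 0.19), with adjusted p values of 0.0718 in edgeR's quasi-likelihood test and 7.92e-07 in DESeq2. Of all genes tested, 5.62% had a lower log2 fold change. Without control mouse 2, the control with the least Lama2 and the least Spi1, edgeR's adjusted p was 0.0162, an exclusion that also raised the genes called over the whole table from 33 to 1193. With any other mouse left out it was between 0.0781 (aPU.1KO mouse 3) and 0.313 (control mouse 1). An antisense transcript, Gm48084, overlaps 631 bases of the merged exons and has no row of its own in the table.

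Lama5 (ENSMUSG00000015647; chromosome 2, 180176373 to 180225859, minus strand, 79 merged exons) encodes an alpha chain of mature epithelial and vascular basement membranes. It measured 52.9, 46.8 and 56.4 CPM in the controls and 20.8, 26.9 and 35.1 CPM in the aPU.1KO mice. As with Lama2, the groups did not overlap and aPU.1KO mouse 1 was lowest. The fold was 0.531 (95% interval 0.389 to 0.724), the log2 fold change -0.91 (SE 0.19), and the adjusted p 0.0764 by edgeR's quasi-likelihood test and 0.000529 by DESeq2. Without control mouse 2 edgeR's adjusted p was 0.0426, and with any other mouse left out it was between 0.0747 and 0.313.

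Lama4 (ENSMUSG00000019846; chromosome 10, 38965515 to 39110188, plus strand) encodes the truncated alpha chain found in the basement membranes of fat cells, vessels and muscle. Its levels were 300.2, 312.3 and 282.7 CPM in the controls and 351.5, 317.2 and 260.5 CPM in the aPU.1KO mice. The aPU.1KO mice spanned the controls on both sides, with a log2 fold change of 0.05 and a 95% interval of -0.24 to 0.35. The interval excludes a change of the size of the Lama2 value in either direction, and Lama4 was the only member with a positive log2 fold change. That sign turned to -0.06 without aPU.1KO mouse 1.

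Because the members differ in length, levels of the alpha chains were set against each other per length, as CPM per kb of merged exons. Summed over Lama1 to Lama5, alpha chain RNA was 32.5 ± 1.05 CPM per kb in controls and 29.8 ± 2.93 in aPU.1KO mice, and the groups overlapped. Lama4 made up 75.5%, 77.9% and 74.9% of that sum in the controls and 90.1%, 86.2% and 81.2% in the aPU.1KO mice, with no overlap. The share of Lama2 was 7.86% ± 1.03 in controls and 3.63% ± 1.10 in aPU.1KO mice, and that of Lama5 14.1% ± 1.73 and 8.34% ± 3.01. With the longest transcript as length instead, the share of Lama4 was 83.8% ± 1.34 and 91.0% ± 2.95, again without overlap.

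Ratios of counts within a library do not depend on its scaling, and they compare mice rather than the levels of the genes, since they are not per length. There were 6.39, 8.56 and 6.80 counts of Lama4 per count of Lama2 in the controls and 27.9, 15.8 and 13.4 in the aPU.1KO mice. The mean log2 ratio was higher by 1.33 in aPU.1KO mice, and the groups did not overlap (exact permutation test, two-sided p = 0.1, the smallest that 3 mice against 3 allow; 0.167 adjusted over the 5 ratios computed). Lama5 over Lama4 differed by -0.99 on the log2 scale, with the same p values in the exact test. All 3 aPU.1KO mice thus had less Lama2 and less Lama5 per Lama4 count than any control.

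**Figure D2:**
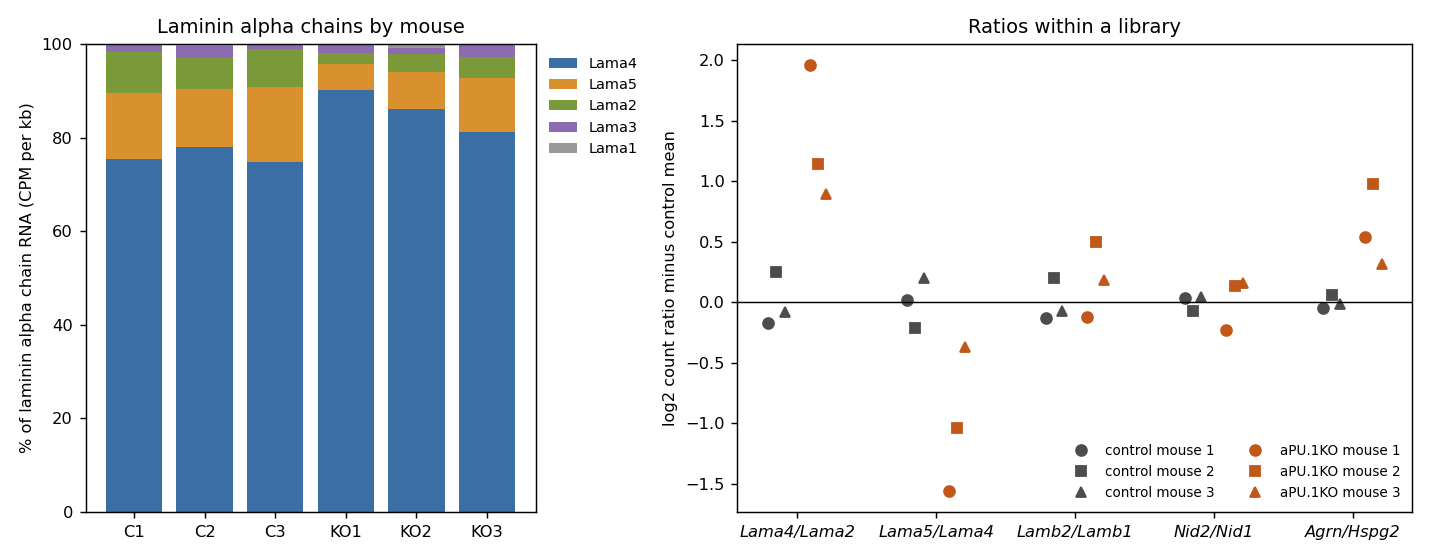
Left, the share of each laminin alpha chain in the summed alpha chain RNA (percent of CPM per kb of merged exons) in control mice (C1 to C3) and aPU.1KO mice (KO1 to KO3). Right, log2 count ratios of 5 gene pairs in each mouse, minus the control mean of the pair: Lama4/Lama2 and Agrn/Hspg2 lie above all controls and Lama5/Lama4 below them in the aPU.1KO mice, while Lamb2/Lamb1 and Nid2/Nid1 overlap.

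The beta chains, which join an alpha and a gamma chain in each trimer, overlapped between the groups. Lamb1 (ENSMUSG00000002900; chromosome 12, 31265234 to 31329644, plus strand) measured 220.2, 206.7 and 193.8 CPM in controls and 198.7, 155.1 and 189.1 CPM in aPU.1KO mice, and aPU.1KO mouse 1 lay among the controls. Its log2 fold change was -0.19 (95% interval -0.46 to 0.08), and with a mouse left out it ranged from -0.27 (without aPU.1KO mouse 1) to -0.097 (without aPU.1KO mouse 2). Lamb2 (ENSMUSG00000052911; chromosome 9, 108479736 to 108490530, plus strand), the beta chain of neuromuscular and kidney basement membranes, measured 137.8, 163.1 and 126.1 CPM in controls and 124.9, 150.4 and 147.5 CPM in aPU.1KO mice. The groups overlapped almost fully, at a log2 fold change of -0.01 (95% interval -0.31 to 0.28). Lamb2 over Lamb1 differed by 0.19 on the log2 scale (exact permutation test, two-sided p = 0.6, adjusted 0.75), and by 0.032 without aPU.1KO mouse 2 and 0.34 without aPU.1KO mouse 1.

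Lamc1 (ENSMUSG00000026478; chromosome 1, 153218922 to 153332786, minus strand) encodes the gamma chain of most laminins and accounted for 96.1% ± 0.400 of gamma chain RNA per kb in controls and 97.1% ± 1.16 in aPU.1KO mice, shares that overlapped. Its levels were 415.6, 440.3 and 392.9 CPM in controls and 316.5, 325.3 and 365.2 CPM in aPU.1KO mice. All aPU.1KO mice were below all controls, aPU.1KO mouse 3 by the smallest gap. The fold was 0.806 (95% interval 0.690 to 0.943), the log2 fold change -0.31 (SE 0.09), and the adjusted p 0.113 by edgeR's quasi-likelihood test and 0.0291 by DESeq2, and without control mouse 2 the log2 fold change was -0.28. Gamma chain RNA in all was 52.4 ± 2.77 CPM per kb in controls and 41.8 ± 3.02 in aPU.1KO mice, with no overlap, while the sums of alpha and of beta chains overlapped.

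Nid1 (ENSMUSG00000005397; chromosome 13, 13437551 to 13512269, plus strand) and Nid2 (ENSMUSG00000021806; chromosome 14, 19751265 to 19811787, plus strand) encode the nidogens, which bind the gamma chain of laminin and type IV collagen. Nid1 measured 1243, 1575 and 1068 CPM in controls and 1230, 853 and 1318 CPM in aPU.1KO mice. Nid2 measured 230.6, 270.4 and 198.6 CPM in controls and 190.3, 169.4 and 265.6 CPM in aPU.1KO mice. In both genes control mouse 2 was highest, aPU.1KO mouse 2 lowest, and the groups overlapped. The log2 fold changes were -0.19 (95% interval -0.70 to 0.31) for Nid1 and -0.16 (-0.62 to 0.30) for Nid2. With a mouse left out they ranged from -0.32 (without control mouse 3) to -0.026 (without aPU.1KO mouse 2) for Nid1 and from -0.37 (without aPU.1KO mouse 3) to -0.035 (without aPU.1KO mouse 2) for Nid2, and without control mouse 2 they were -0.036 and -0.051. The pair kept a near constant ratio in the controls, with 0.172 to 0.186 Nid2 counts per Nid1 count, and the aPU.1KO mice ranged from 0.155 to 0.202 (exact permutation test, two-sided p = 1). Rtraf, on the opposite strand, shares 437 bases (8.45%) of the merged exons of Nid2, so some counts of either gene could come from the other. A stretch of 225 bases of Nid1 is 99.6% identical to Gm2399, and reads of it are uncertain in the same way.

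Of the heparan sulfate proteoglycans, perlecan was lower in every aPU.1KO mouse and agrin overlapped between the groups. Hspg2 (ENSMUSG00000028763; chromosome 4, 137468769 to 137570630, plus strand, 97 merged exons) measured 1175, 1254 and 1081 CPM in controls and 838, 543 and 931 CPM in aPU.1KO mice. The groups did not overlap, and aPU.1KO mouse 2 was far below the other two. The fold was 0.659 (95% interval 0.471 to 0.922), the log2 fold change -0.60 (SE 0.20), and the adjusted p 0.132 by edgeR's quasi-likelihood test and 0.0411 by DESeq2. The log2 fold change of Hspg2 was -0.41 without aPU.1KO mouse 2 and -0.56 without control mouse 2 (edgeR adjusted p = 0.203). Agrn (ENSMUSG00000041936; chromosome 4, 156165290 to 156197488, minus strand), which also clusters acetylcholine receptors at nerve endings, measured 35.9, 41.3 and 33.7 CPM in controls and 38.4, 33.6 and 36.6 CPM in aPU.1KO mice. The groups overlapped, with a log2 fold change of -0.03 (95% interval -0.28 to 0.22). There were 0.0306, 0.0330 and 0.0312 Agrn counts per Hspg2 count in controls and 0.0458, 0.0619 and 0.0393 in aPU.1KO mice, all above the controls (log2 difference 0.61, exact permutation test, two-sided p = 0.1, adjusted 0.167).

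**Figure D3:**
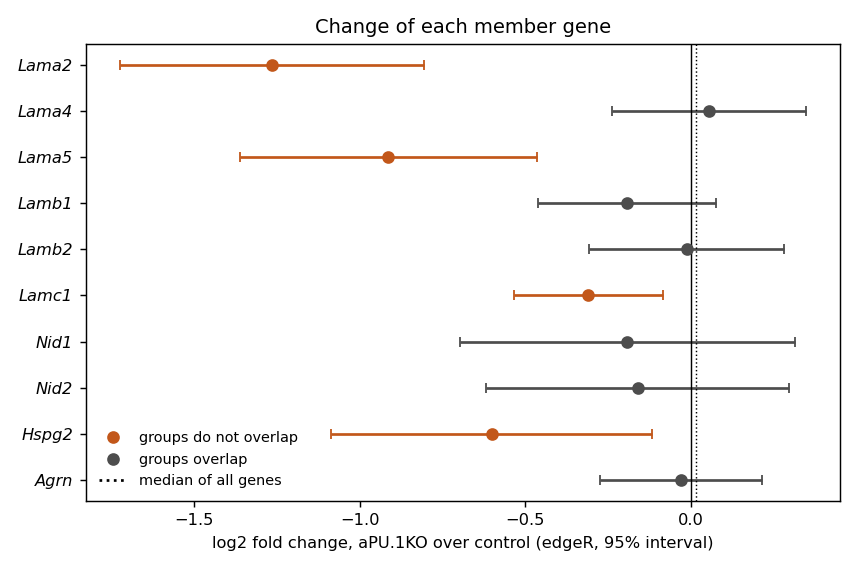
Log2 fold change (aPU.1KO over control, edgeR) of each member with its 95% interval, and the median of all genes tested as a dotted line. The intervals of Lama2, Lama5, Lamc1 and Hspg2, whose groups do not overlap, lie below 0, and those of the other 6 members include it.

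The lowest aPU.1KO mouse was not the same for all members. aPU.1KO mouse 1 was lowest for Lama2, Lama5, Lamc1 and Lamb2, aPU.1KO mouse 2 for Lamb1, Nid1, Nid2, Hspg2 and Agrn, and aPU.1KO mouse 3 for Lama4. Summed endothelial markers in the aPU.1KO mice were 371.7, 806.4 and 488.8 CPM, so mouse 1, with the least Lama2, Lama5, Lamc1 and Lamb2, had the least endothelial marker RNA of its group, and mouse 2, with the least Lamb1, Nid1, Nid2, Hspg2 and Agrn, had the most. Summed mural markers were 438.7, 428.9 and 563.1 CPM in the same mice, so there mouse 2 was lowest and close to mouse 1. Of the 9 endothelial markers, 9 had a negative log2 fold change and 1 an unadjusted p under 0.05 (edgeR). Of the 9 mural markers, 9 were negative, 5 were lower without overlap (Rgs5, Pdgfrb, Myh11, Notch3 and Kcnj8), the same number had an unadjusted p under 0.05, DESeq2 called 4, and Pdgfrb (log2 fold change -0.95, edgeR quasi-likelihood adjusted p = 0.0491), a receptor of pericytes, was called. Of the 7 progenitor and fibroblast markers, 7 were negative and 5 did not overlap between the groups. The 5 Schwann cell markers summed to 36.3 to 46.3 CPM in controls and 33.6 to 58.1 CPM in aPU.1KO mice, with the defining gene Sox10 at 3 counts or fewer in every library. Hepatocyte genes (6 genes, 38.9 to 60.6 CPM against 17.9 to 24.3) were low and lower in every aPU.1KO mouse. Mesothelial and lymphocyte markers overlapped between the groups in their sums. Besides Pdgfrb, edgeR called 2 of the 6 hepatocyte genes and 1 of the 9 macrophage markers at an adjusted p under 0.05 (0.237% of all genes). At an unadjusted p under 0.05, 6 hepatocyte genes and 8 macrophage markers were lower. Over all genes, 15.5% were lower without overlap, 13.7% by the unadjusted p and 7.48% by DESeq2. The part of these cell types in the lower Lama2, Lama5, Lamc1 and Hspg2 values was not tested.

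Per kb of merged exons, the members covered a wide range in the controls. Nid1 stood highest at 187 ± 37.1 CPM per kb (SD, n = 3), followed by Hspg2 at 81.8 ± 6.06. Lamc1 (50.3 ± 2.87) and Nid2 (45.1 ± 6.95) overlapped, as did Lama4 (24.7 ± 1.23) with Lamb2 (23.4 ± 3.11), and Lamb2 with Lamb1 (20.9 ± 1.33). Lama5 (4.57 ± 0.426) overlapped with Agrn (3.98 ± 0.422), and Lama2 was lowest at 2.55 ± 0.321. On this length the order changed in a single place in the aPU.1KO mice, with Agrn (3.90 ± 0.258) above Lama5 (2.43 ± 0.630) without overlap. Hspg2 (53.9 ± 14.2) now overlapped with Lamc1 (40.6 ± 3.14). The order depends on the length used: per kb of the longest transcript, Lama4 in the controls was at 49.4 CPM per kb, between Lamc1 (54.6) and Nid2 (47.8), Lamb1 (35.8) was above Lamb2 (25.3), and Lama2 (4.34) overlapped with Agrn (4.29). In the aPU.1KO mice Lama4 (51.2) was then above Lamc1 (44.0), with overlap. Agrn (4.20) was above both Lama5 (2.43) and Lama2 (1.81).

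**Figure D4:**
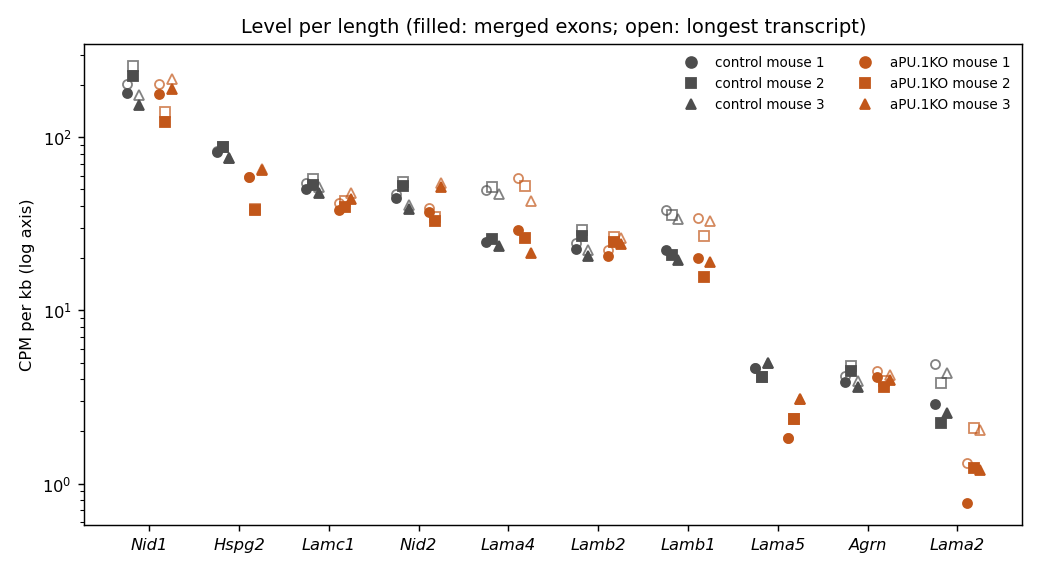
CPM per kb (log axis) of each member in every control and aPU.1KO mouse, ordered by the control mean per kb of merged exons; filled symbols use merged exons and open symbols the longest transcript. In the controls Nid1 and Hspg2 stand above the laminin chains, in aPU.1KO mouse 2 Hspg2 lies below Lamc1, and Lama5, Agrn and Lama2 lie lowest on either length.

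The other genes of the basement membrane and its receptors were followed in 8 lists of 91 genes, of which 84 passed the filter. None had an adjusted p under 0.05 in edgeR's quasi-likelihood test; at an unadjusted p under 0.05, 20 were lower and 3 higher, and DESeq2 called 16 lower and 0 higher. Their median log2 fold change was -0.22. Groups did not overlap for 30 lower and 6 higher genes of the 84. Over all genes, the shares lower and higher were 13.7% and 11.9% by the unadjusted p, 7.48% and 3.51% by DESeq2, and 15.5% and 16.7% without overlap.

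Of the 5 other laminin chains, 1 was lower at an unadjusted p under 0.05 (13.7% of all genes). This was Lamc3, a gamma chain, with 9.82, 11.3 and 9.28 CPM in controls and 4.62, 8.95 and 5.02 CPM in aPU.1KO mice (log2 fold change -0.70). Lamb3, the beta chain of skin laminin, measured 13.2, 12.6 and 15.6 CPM against 12.5, 5.15 and 9.33 CPM, also without overlap. The median over these 5 chains was -0.62.

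All 8 basement membrane collagens had negative log2 fold changes, with a median of -0.70, and 6 were lower without overlap (15.5% of all genes). Col4a1, a chain of the main type IV collagen network to which the nidogens bind, measured 2029, 2029 and 2075 CPM in controls and 1480, 1136 and 1405 CPM in aPU.1KO mice (log2 fold change -0.61, edgeR quasi-likelihood adjusted p = 0.0783). Its partner chain Col4a2 measured 1534, 1496 and 1554 CPM against 1035, 751 and 1123 CPM (log2 fold change -0.66). In both chains aPU.1KO mouse 2 was lowest, as it was for Hspg2. The third collagen with an unadjusted p under 0.05 was Col4a4 (log2 fold change -1.51), named after its value was seen, at under 4 CPM in every mouse.

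Among 14 other basement membrane proteins tested, an unadjusted p under 0.05 was found for 6 lower genes (13.7% of all genes) and 1 higher gene (11.9%), with a median log2 fold change of -0.51. Sparc, a calcium-binding glycoprotein that binds type IV collagen, measured 6162, 5914 and 7115 CPM in controls and 4776, 2681 and 5332 CPM in aPU.1KO mice (log2 fold change -0.59, edgeR adjusted p = 0.225). Pxdn, the peroxidase that crosslinks type IV collagen, overlapped between the groups at a log2 fold change of 0.00. The lower genes were Hmcn2, Fbln1, Smoc2, Ntn4, Fbln2 and Papln, with log2 fold changes of -2.61, -1.40, -1.33, -1.12, -1.03 and -0.88, and the higher gene was Smoc1, a relative of Sparc (0.31), all named after their values were seen. Fras1, Frem1 and Frem2 did not pass the filter.

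Receptors at the cell surface bind laminin and agrin. Of 10 tested, 10 were negative, with a median of -0.32 beside 0.01 over all genes. At an unadjusted p under 0.05, 1 was lower (13.7% of all genes) and 0 higher (11.9%). Without overlap, 3 were lower (15.5% of all genes). The one with the low p was the collagen and laminin receptor chain Itga2 (log2 fold change -2.12, named after its value was seen), at under 1 CPM in every mouse. Itgb1, the common integrin beta chain, had a log2 fold change of -0.25 and Itga6, a laminin-binding alpha chain, of -0.08, both with overlap. The dystrophin glycoprotein complex ties dystroglycan to the cytoskeleton, and its 12 genes tested had a median of 0.08. An unadjusted p under 0.05 was reached by 1 lower gene (13.7% of all genes) and 1 higher gene (11.9%). The higher gene was Sntb1, a syntrophin (log2 fold change 0.37). Utrn, the dystrophin relative utrophin, was at 0.00.

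The 12 enzymes tested that build the laminin-binding glycan of dystroglycan had a median of 0.03. At an unadjusted p under 0.05, 0 were lower (13.7% of all genes) and 1 was higher (11.9%). The higher one was Rxylt1, a xylosyltransferase of that glycan, at 37.3, 40.7 and 37.8 CPM in controls and 47.0, 45.6 and 45.7 CPM in aPU.1KO mice (log2 fold change 0.26). Heparan sulfate enzymes make and trim the chains that perlecan and agrin carry, and the 16 tested had a median of -0.11. At an unadjusted p under 0.05, 4 were lower (13.7% of all genes) and 0 higher (11.9%). Without overlap, 4 were lower (15.5% of all genes) and 3 higher (16.7%). The 4 lower genes were the same by both measures, Xylt1, Ndst1, Hs6st1 and Hpse (log2 fold changes -0.63, -0.25, -0.72 and -2.34, named after their values were seen). Extl3 (-0.03) and the sulfatase Sulf2 (0.18) did not pass an unadjusted p under 0.05, though Sulf2 was higher without overlap.

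Of 7 proteases that act on basement membrane proteins, the unadjusted p was under 0.05 for 4 lower genes (13.7% of all genes) and 0 higher genes (11.9%), with a median of -0.52. They were Mmp2, Mmp14, Bmp1 and Prss12 (log2 fold changes -1.51, -1.55, -0.52 and -1.88, named after their values were seen), the last of which cleaves agrin. In Mmp2 and Mmp14 control mouse 2, at 15.3 and 17.9 CPM, was the lowest control, as it was for the progenitor and fibroblast markers. The 2 most abundant of the list, the lysosomal protease Ctsl and the secreted protease Adamts1, had log2 fold changes of -0.37 and 0.13 with overlap.

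**Figure D5:**
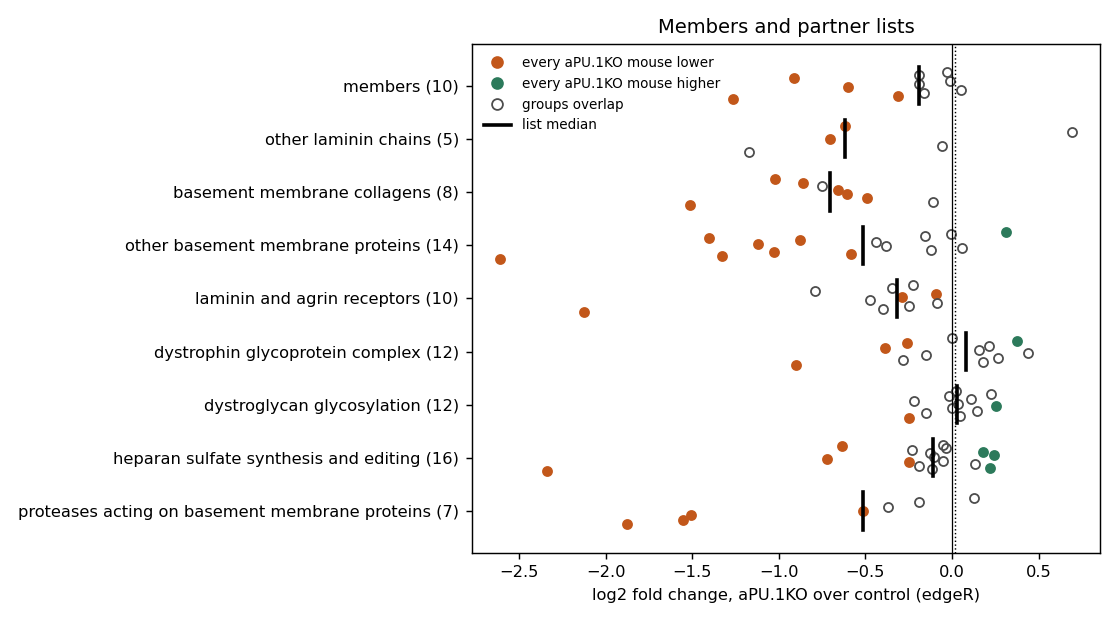
Log2 fold change (aPU.1KO over control, edgeR; x axis) of the 10 members and of each tested gene of the 8 partner lists, with the number tested in brackets, list medians as bars and the median of all genes as a dotted line. The collagens lie wholly below 0, and the lists of the dystrophin complex and of dystroglycan glycosylation are centred near 0.

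The genes whose levels followed those of the members most closely were sought with the mean of the members' z-scored log2 CPM. That mean was 0.46, 0.97 and -0.10 in the controls and -0.39, -0.89 and -0.06 in the aPU.1KO mice, so the groups overlapped, control mouse 2 was highest and aPU.1KO mouse 2 lowest. Over the 6 libraries, which differ in depth and fall into 2 groups, the highest Pearson correlations outside the members were those of Lrrc1 (0.996), Tnc (0.995), Clmp (0.995), Lcor (0.994) and Ndst1 (0.993). These are the top of a ranking of the 13925 genes tested. Whether values this high exceed those of unrelated genes over so few libraries was not tested. Ndst1, an N-sulfotransferase of heparan sulfate chains, measured 57.3, 63.4 and 53.3 CPM in controls and 48.9, 45.8 and 52.1 CPM in aPU.1KO mice. Tnc, the matrix glycoprotein tenascin C, measured 18.7, 23.3 and 11.9 CPM and 9.30, 6.55 and 12.0 CPM, and was the only one of the 5 whose groups overlapped.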

How the data were processed

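RNA-seq of 3 control and 3 aPU.1KO mice was used, 1 library per mouse, so p-values measure the spread between mice. The authors deposited estimated counts per Ensembl gene as whole numbers, quantified with Salmon (validateMappings) and summed from transcripts, without normalization. Per the labels the build is GRCm38; the Salmon version and the annotation are not given in the sources used here. Symbols and coordinates come from GENCODE M21 (35102 of 35122 genes matched). Genes were filtered (filterByExpr), scaled by TMM and compared in R 4.3.3 with edgeR 4.0.16 (glmQLFit defaults, glmQLFTest, Benjamini-Hochberg adjustment over 13925 genes), after a test on simulated data. Alternatives used DESeq2 1.42.0 (the study's tool), limma-voom (limma 3.58.1), other scalings, filters and edgeR options, a thinned control library 1 and each library left out. Ratios were tested in scipy 1.17.1 by exact permutation. Sequence identity came from BLAST 2.17.0 (at least 100 bases at 90%). The genes named were all members, Spi1, the 2 tested genes of highest mean CPM of each partner list, any gene of these lists with an adjusted p under 0.05, and the 5 most correlated genes (log2 CPM, prior count 2). Some cell type markers were named after their values were seen. The members and lists were chosen with earlier results of these data known. Counts of 3 or fewer were taken as the floor. A few genes of these lists are not reported here.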

Additional observations from a re-analysis of the deposited data

How the results depend on the processing

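Of 150 fits of the 10 members under 15 alternatives, 138 kept the sign and the side of the threshold, 7 passed the threshold with the same sign and 5 changed sign. edgeR called 33 genes, 0 members and 0 partner genes. Without a filter beyond 1 count it called 146, 1 (Lama2, adjusted p = 0.0405) and 1, and DESeq2 called 1833, 4 and 16. With at least 10 counts in every library it called 5 of all genes. With a mouse left out, the calls ranged from 0 (without control mouse 1) to 1193 (without control mouse 2) for all genes, and they numbered 5 without control mouse 3 and 6, 7 and 8 without aPU.1KO mouse 1, 2 and 3. Under the same exclusions they ranged from 0 to 2 for the members and from 0 to 11 for the partner genes, each highest without control mouse 2. The cause of these shifts was not tested. Over all alternatives Lama2 stayed between -1.38 and -1.09 on the log2 scale and Lama5 between -1.12 and -0.76, with adjusted p from 7.92e-07 and 0.000529 (DESeq2) to 0.313 for both. Signs changed only near 0 and only with a mouse left out: Lama4 ranged from -0.057 to 0.17, Lamb2 from -0.099 to 0.085, Agrn from -0.097 to 0.046, and the Nid2 over Nid1 log2 ratio from -0.045 to 0.145. Lama4 was negative without aPU.1KO mouse 1 (-0.057). Lamb2 was positive without control mouse 2 (0.085) and aPU.1KO mouse 1 (0.056), and Agrn without control mouse 2 (0.046) and aPU.1KO mouse 2 (0.017). The ratio was negative without control mouse 2 (-0.016) and aPU.1KO mouse 2 (-0.035) and mouse 3 (-0.045). No paired analysis was possible because the labels give the groups no shared replicate numbers and do not say which mice shared a litter. With 3 mice per group, an exact permutation test cannot go below 0.1. The members' lowest count in a library was 248.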
